A study of Mus musculus with 7 samples.

Results

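Excitatory transmission in the hippocampus runs through glutamate receptors and the proteins that hold them in the postsynaptic density. AMPA, NMDA and kainate receptors are ion channels assembled from several subunits, metabotropic receptors signal through G proteins, auxiliary subunits set the trafficking and gating of the channels, and scaffold proteins anchor them. Glia carry glutamate receptors too: astrocytes take up glutamate released at synapses and sense it through metabotropic receptors, and oligodendrocyte precursor cells (OPCs) receive glutamatergic synapses from neurons. A set of 34 genes was followed here, matched by symbol among the 55536 genes of the deposited annotation: the AMPA receptor subunits Gria1 to Gria4, the NMDA receptor subunits Grin1, Grin2a, Grin2b, Grin2c, Grin2d and Grin3a, the kainate receptor subunits Grik1 to Grik5, the metabotropic receptors Grm2, Grm3, Grm4, Grm5, Grm7 and Grm8, the delta receptor Grid1, the auxiliary subunits Cacng2, Cacng3, Cacng8, Cnih2, Cnih3, Neto1 and Neto2, and the scaffolds Dlg4, Dlgap1, Shank1, Shank2 and Shank3. They were grouped by function.

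The study asked what blocking the complement receptor C5aR1 does to hippocampal cells in a mouse model of Alzheimer's disease. Single nuclei of 24 mice were barcoded in 24 wells, 1 mouse per well, from part of the hippocampus of each perfused mouse, and each group held 3 females (F1 to F3) and 3 males (M1 to M3). WT-veh mice were wild-type on plain drinking water, and WT-PMX mice were wild-type and drank PMX205, a cyclic peptide antagonist of C5aR1, at 20 µg/ml for 12 weeks. Arc-veh mice were hemizygous for the Arctic48 transgene, human APP with the Indiana, Swedish and Arctic mutations on the C57BL6/J background, on plain water, and Arc-PMX mice carried the same transgene and drank PMX205 at the same dose. All mice were housed singly during treatment and taken at 10 months of age, and the transgene is a single overexpressing line, so the genotype cannot be told apart from overexpression of human APP. The study's reporting summary states that 1 WT sample was excluded because its expression was that of an Arctic mouse, but names no well, so every well was kept with its label.

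After filtering, 43885 nuclei remained, with 1146 to 3108 nuclei and 4383653 to 29936082 transcripts per well. Clusters with the markers of 8 types held 8585 dentate granule (Prox1), 4855 CA1 (Fibcd1), 2429 CA3 (Grik4) and 2654 Gad1/Gad2 interneuron nuclei, and 5442 astrocyte, 4162 oligodendrocyte, 1329 OPC and 1510 microglia nuclei. The other 12919 nuclei, other neurons included, were used only where stated. The well, not the nucleus, was the replicate (n = 6 wells per group, except microglia with 4 WT-veh and 5 WT-PMX wells). WT-veh F3 and M3 held only 15 and 28 oligodendrocyte nuclei. Levels are CPM, the transcripts of a gene per 1000000 transcripts of that type in the well. As the counts are not corrected for gene length, CPM of different genes were not ranked against each other. A level is an average per transcript of the nuclei sampled, so a change in which nuclei of a type are present and a change within each nucleus cannot be told apart from the sum alone.

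The 34 genes differed in level between the hippocampal cell types. The type with the highest mean was the interneuron for 9 genes, CA1 for 8, CA3 and dentate granule nuclei for 6 each, OPCs for 3, and astrocytes and oligodendrocytes for 1 each. For most genes the wells of the highest type overlapped those of the next. Some means were close, as for Gria1 (5337 CPM in interneurons and 5183 in CA1) and Cnih2 (27.1 in dentate granule nuclei and 26.9 in CA1). These levels are a description of types that clustering defined, with the 34 genes left out of clustering, and carry no test. Grik4 marks CA3 by the way the types were named, so its 2109 ± 239 CPM there (mean ± SD over 24 wells, as for all levels across types) is no result.

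**Figure D1:**
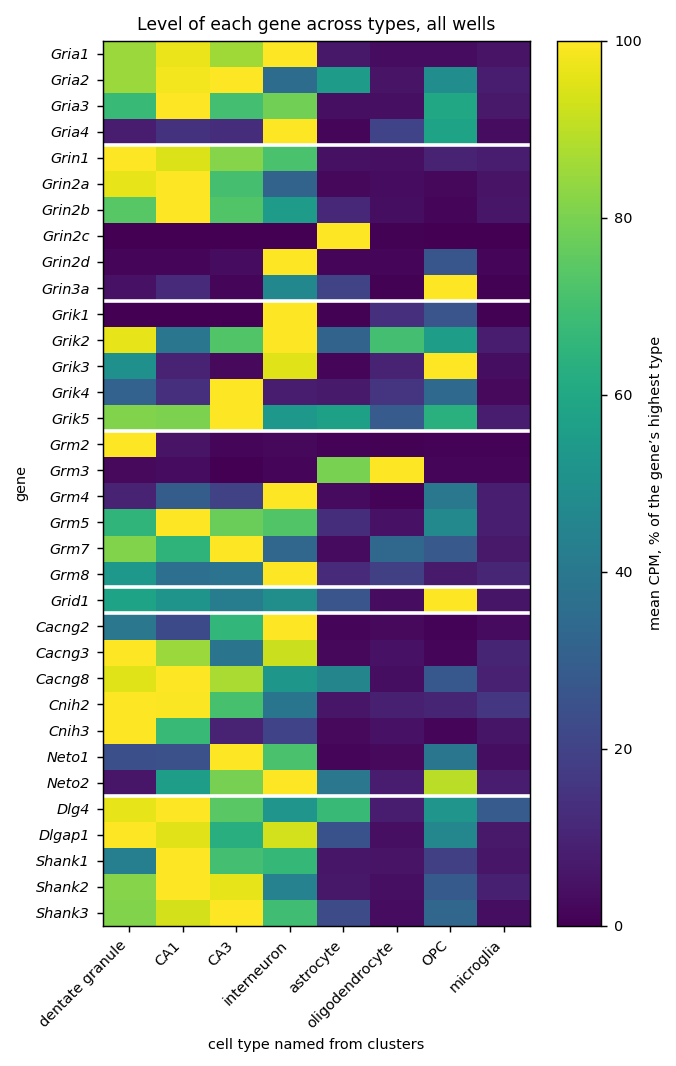
Mean level of each of the 34 genes (vertical axis, by class) in 8 cell types (horizontal axis), as percent of the gene's own highest type, from CPM over the wells of all 4 groups. Grin2c fills the astrocyte column alone, Grm3 the oligodendrocyte and astrocyte columns, and Grik1 and Gria4 peak in interneurons with OPCs next.

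Among AMPA receptor subunits, Gria4 separated the types most. It reached 1853 ± 286 CPM in interneurons and 1075 ± 159 CPM in OPCs, the next type, with overlapping wells (1257 to 2628 against 759 to 1421), and the interneuron mean was 7.15 times the median of the 8 types. Gria3 was least above its median over types, with 936 ± 115 CPM in CA1, 1.57 times the median, and overlapped the 737 ± 118 CPM of interneurons, but had only 38.7 ± 25.4 CPM in oligodendrocytes. Gria1 relative to Gria2, whose edited subunit keeps calcium out of the channel, was highest in interneurons. The log2 ratio of Gria1 to Gria2 was 2.94 ± 0.36 there, against 1.45 ± 0.26 in dentate granule, 1.43 ± 0.26 in CA1 and 1.23 ± 0.22 in CA3 nuclei.

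NMDA receptors need the obligate subunit Grin1, which was spread over the neurons, with 331 ± 47 CPM in interneurons to 463 ± 56 CPM in dentate granule nuclei, and was low in glia, with 19.9 ± 17.8 CPM in oligodendrocytes to 46.4 ± 31.8 CPM in OPCs. The GluN2 subunits, which set the kinetics of the channel, split by cell type. Grin2a was high in CA1 (5365 ± 553 CPM) and dentate granule nuclei (5172 ± 407 CPM), which overlapped, and its CA1 mean was 5.38 times its median over types. Relative to Grin2b it stood highest in dentate granule nuclei, with a log2 ratio of 1.18 ± 0.10, followed by CA1 (0.79 ± 0.12) and CA3 (0.75 ± 0.10), while in interneurons both genes had nearly the same CPM (log2 ratio -0.01 ± 0.20). Grin2c was an astrocyte gene in these nuclei. It had 431 ± 95 CPM in astrocytes, with every well above every well of any other type, and 49.3% of astrocyte nuclei held a transcript, against 0.519% of neuron-like nuclei, whose median depth was 8415 transcripts against 1770.5 in astrocytes. Grin2d reached 76.6 ± 19.4 CPM in interneurons and 20.6 ± 14.0 CPM in OPCs. Grin3a, which lowers the calcium permeability of the channel, was highest in OPCs (600 ± 104 CPM), where every well lay above the interneuron wells, the next type (280 ± 49 CPM).

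Of the kainate receptor subunits, Grik1 and Grik3 were highest in interneurons and OPCs. Grik1 had 2135 ± 359 CPM in interneurons, 203 times its median, and 565 ± 151 CPM in OPCs, with no overlap of wells. Grik3 had 322 ± 98 CPM in OPCs and 306 ± 69 CPM in interneurons, which overlapped, and the order of their means was not the same in WT and Arctic wells, which was not tested. The OPC means were 259.8 and 268 CPM in WT-veh and WT-PMX wells, against 276 and 285 in interneurons, and 401 and 359 in Arc-veh and Arc-PMX wells, against 353 and 309.6. Grik2 had the smallest ratio of its highest mean to its median, with 2153 ± 415 CPM in interneurons and 2075 ± 333 CPM in dentate granule nuclei. Grik5 was highest in CA3 (235 ± 42 CPM), with wells that overlapped those of dentate granule nuclei, the next type (191 CPM).

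Of the metabotropic receptors that inhibit adenylyl cyclase, Grm2, Grm3 and Grm4 were each at least 4 times their median in their highest type, and Grm7 and Grm8 were not. Grm2 was highest in dentate granule nuclei (29.6 ± 9.7 CPM, no well as low as the highest CA1 well at 4.29 CPM). Grm3 was a glial gene, with 1844 ± 307 CPM in oligodendrocytes and 1470 ± 386 CPM in astrocytes, whose wells overlapped. Grm4 reached 47.2 ± 14.8 CPM in interneurons. Grm5, which couples to phospholipase C and is the group I receptor of this set, had 3233 ± 392 CPM in CA1, or 1.78 times its median, and was lowest in oligodendrocytes (157 ± 83 CPM). The delta receptor Grid1 was highest in OPCs (1505 ± 142 CPM), above every well of dentate granule nuclei (875 ± 89 CPM).

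Auxiliary subunits differed in level between the neuronal types, and for each the wells of the highest type overlapped those of the next. The stargazin gene Cacng2 had 283 ± 54 CPM in interneurons and 187 ± 40 CPM in CA3, Cacng3 had 209 ± 30 CPM in dentate granule and 192 ± 38 CPM in interneuron nuclei, and Cacng8 had 175 ± 26 CPM in CA1, its highest type. The cornichon gene Cnih3, whose product slows AMPA receptor gating, had 208 ± 41 CPM in dentate granule nuclei and 141 ± 23 CPM in CA1 but 19.9 CPM in CA3. Neto1, a kainate receptor partner, was highest in CA3 (977 ± 125 CPM) and next in interneurons (698 ± 115 CPM). All 5 scaffolds were highest in a neuronal type and lowest in oligodendrocytes. Dlg4, which encodes PSD-95, had 173 ± 24 CPM in CA1, 1.67 times its median over types, and 13.2 CPM in oligodendrocytes. The other 12 genes reached at most 1.67 (Grik5) to 3.65 (Cnih2) times their median over types, with the highest level of each in a neuronal type.

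Because nuclear preparations can carry free neuronal RNA, each gene's CPM in a glial type was divided by its CPM in all neuron-like nuclei, and set beside the same ratio for 6 neuronal genes (Slc17a7, Rbfox3, Snap25, Syt1, Camk2a and Nrgn). In astrocytes the highest of these 6 ratios was 0.0770, and 12 of the 34 genes stood at least 3 times above it. These ratios pool the wells of all 4 groups, so a gene higher in Arctic wells can pass through those wells. Neto2 had means of 16.2 CPM in WT-veh and 59.5 in Arc-veh astrocytes, and Shank3 of 13.5 and 35.6. Grin2c had a ratio of 733, Grm3 of 15.7 and Grin3a of 1.70, and the ratios of Dlg4 (0.791), Grik5 (0.726), Gria2 (0.671), Neto2 (0.666), Cacng8 (0.572), Grik2 (0.476), Grid1 (0.474), Dlgap1 (0.310) and Shank3 (0.246) were below 1. In oligodendrocytes the limit was 0.0658 and 8 genes passed 3 times that level, Grm3 (19.6), Grin2c (4.13, on 20 transcripts in all), Grik1 (1.14), Grik2 (1.06), Gria4 (0.738), Grik4 (0.452), Grm7 (0.435) and Grik5 (0.365). OPCs had a higher limit of 0.252, set by Snap25 alone (167 ± 37 CPM), while the other 5 genes had ratios of 0.00787 to 0.0449, so that the OPC limit rests on 1 gene and is not a measure of free RNA by itself. In OPCs 12 genes passed, led by Grin3a (8.27), Grin2c (2.45, on 6 transcripts), Grik1 (2.14), Gria4 (2.12), Grik3 (1.87), Grid1 (1.81), Grin2d (1.65) and Neto2 (1.5), then Grik4 (1.02), Neto1 (0.900), Grik2 (0.845) and Grik5 (0.809). In microglia 3 genes passed a limit of 0.0989, Grin2c (1.46, on 2 transcripts), Dlg4 (0.333) and Grm3 (0.331). The other genes did not reach 3 times the limit over all wells. Some of them still lay above all 6 neuronal genes, among them Grin2b (0.151), Grm5 (0.153) and Grik4 (0.213) in astrocytes and Gria3 (0.731), Dlg4 (0.608), Gria2 (0.595), Dlgap1 (0.569) and Grm5 (0.547) in OPCs.

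The first group comparison asked which of these genes differed between Arctic and WT mice on plain water. The contrast of Arc-veh with WT-veh was fitted with edgeR's quasi-likelihood test over all genes of a type, and a gene was called at an adjusted p under 0.05 (Benjamini-Hochberg over the tested genes of that type). A second comparison, all Arctic minus all WT wells, averages both treatments and shares the water wells with the first, so the calls of both are not independent. In neurons 30 to 32 of the 34 genes had enough counts to be tested, and 1 was called in Arc-veh minus WT-veh, Cnih3 in CA3. In astrocytes 24 genes were tested and 11 were called, 4 higher and 7 lower, in oligodendrocytes 2 of 19, and in OPCs and microglia 0 of 20 and 0 of 8. Types differ in depth, and differences between types in these effects were not tested.

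**Figure D2:**
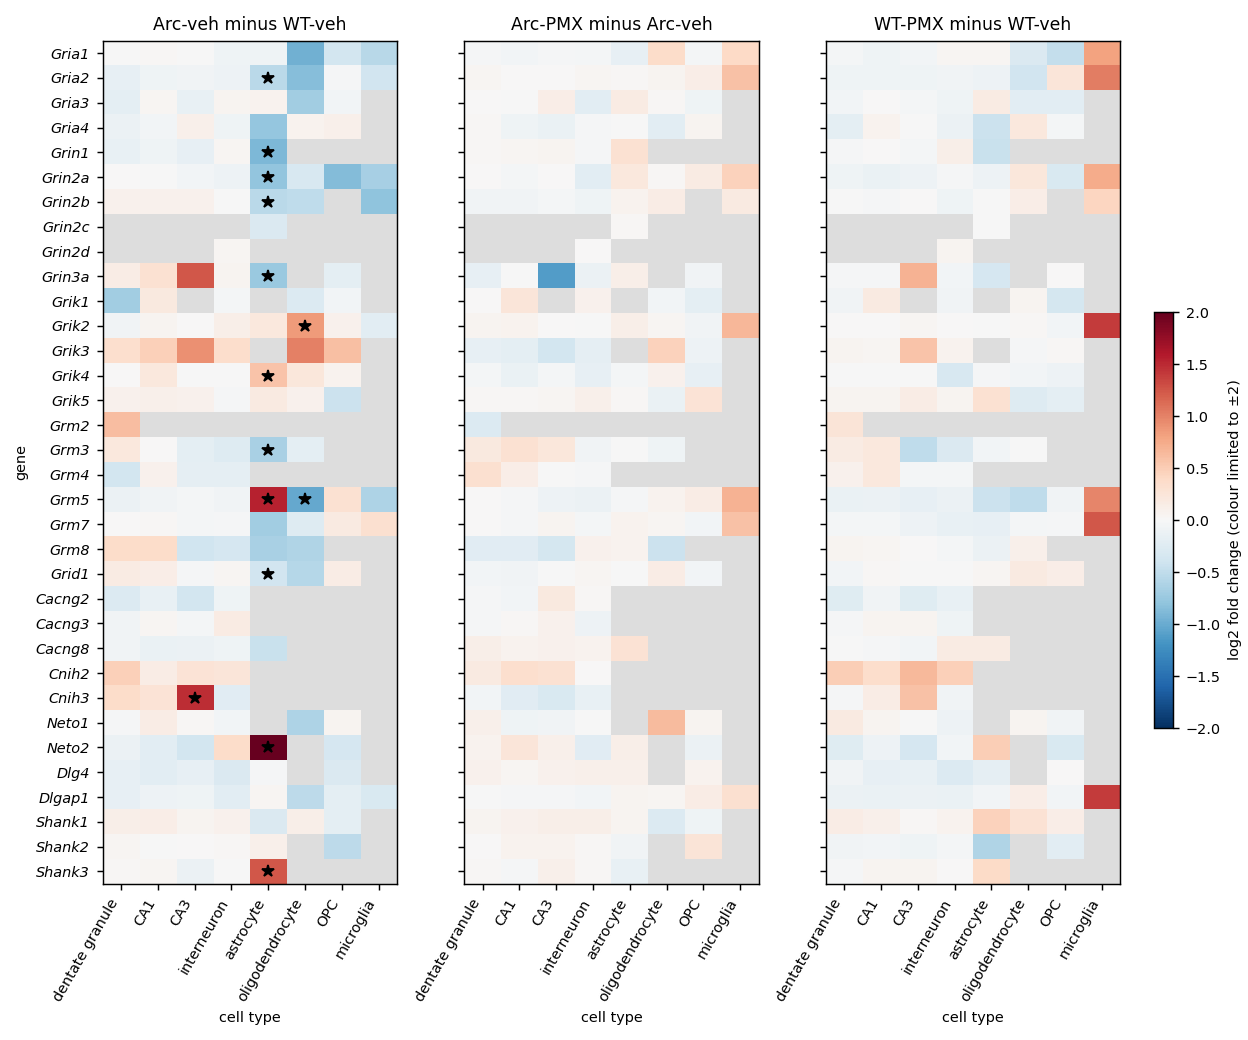
Log2 fold change (colour, limited to ±2) of each of the 34 genes (vertical axis) in 8 types (horizontal axis) for the effect of genotype on water (Arc-veh minus WT-veh) and the effects of PMX205 in Arctic and in WT mice, with stars at adjusted p under 0.05 and grey where a gene was not tested. Stars occur only in the first panel, 11 of them in the astrocyte column, 2 in oligodendrocytes and 1 in CA3.

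Astrocytes held the most calls. Grm5 was nearly 3 times as high in Arc-veh as in WT-veh, Neto2 and Shank3 rose from low levels, and Grik4 rose by less. Grm3, Gria2, Grin2b, Grin3a, Grin2a, Grid1 and Grin1 fell. The share of called genes, 11 of 24 tested, stood beside 12.5% of all 7307 genes tested in astrocytes (7.6% called higher and 4.9% called lower, against 4 and 7 of the 24). The median log2 fold change of the tested genes was -0.29, against 0.01 for all genes. Over all Arctic and WT wells 13 were called, 5 higher and 8 lower, where 19.9% of all genes were (11.1% higher, 8.77% lower), with a median of -0.33.

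Grm5 (chr7:87584168-88134907, plus strand, mm10), the group I metabotropic receptor that astrocytes use to sense glutamate in the young brain, had 188, 227 and 279 CPM in WT-veh astrocytes (lowest, median and highest well), 102, 171 and 215 in WT-PMX, 538, 685 and 708 in Arc-veh, and 509, 643 and 823 in Arc-PMX. Every Arctic well lay above every WT well. The log2 fold change in Arc-veh was 1.54 (SE 0.14, adjusted p = 8.28e-11 by edgeR's quasi-likelihood test), and over all Arctic and WT wells it was 1.74 (SE 0.10, adjusted p = 3.5e-17). A transcript of Grm5 was seen in 23.7% of WT-veh and 24.2% of WT-PMX astrocyte nuclei and in 50.2% of Arc-veh and 50.6% of Arc-PMX nuclei, whose median depth was also higher (2450 and 2164 against 1354 and 1624.5 transcripts). Syt1, a neuronal gene at the level of free RNA, was seen in 18.3% and 20.0% of WT-veh and WT-PMX nuclei and in 18.9% and 19.8% of Arc-veh and Arc-PMX nuclei. Its CPM was itself lower in Arc-veh (log2 fold change -0.89), so these shares mix a lower level with a higher depth. They do not measure what depth adds to detection, and the part of depth in the Grm5 shares was not tested. In WT astrocytes the CPM of Grm5 relative to neurons, 0.0767 in WT-veh and 0.0614 in WT-PMX, was within the range of the 6 neuronal genes (0.0335 to 0.106 and 0.0335 to 0.104), so its WT level was not separated from free RNA. In Arctic astrocytes it was 0.244 and 0.233, where those genes reached at most 0.0401 and 0.0499.

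Neto2 (chr8:85636588-85700924, minus strand, mm10) encodes an auxiliary subunit of kainate receptors. Its lowest, median and highest CPM were 5.40, 12.7 and 40.9 in WT-veh, 10.6, 14.4 and 49.2 in WT-PMX, 7.40, 68.3 and 87.2 in Arc-veh, and 48.6, 62.2 and 106 in Arc-PMX. Arc-veh F1 lay among the WT wells and the other Arc-veh wells above most of them. The log2 fold change in Arc-veh was 2.31 (SE 0.38, adjusted p = 1.59e-05, edgeR). The scaffold Shank3 (chr15:89499623-89560261, plus strand, mm10) had 0, 12.0 and 25.3 CPM in WT-veh, 15.1, 17.4 and 35.2 in WT-PMX, 30.3, 34.3 and 43.2 in Arc-veh, and 19.5, 28.0 and 67.4 in Arc-PMX. All Arc-veh wells were above all WT-veh wells, and the log2 fold change was 1.25 (SE 0.32, adjusted p = 0.00614, edgeR). Relative to neurons, Shank3 in WT astrocytes lay above the highest of the 6 neuronal genes, but by less than 3 times. The same held for Neto2 in WT-veh astrocytes (16.2 CPM, beside 64.0 in neuron-like nuclei), while in WT-PMX Neto2 passed 3 times. WT-veh astrocytes held 27 transcripts of Neto2 and 32 of Shank3 in all.

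Of the kainate receptor subunits, 1 was called higher in Arc-veh astrocytes. Grik4 had 88.7, 115 and 173 CPM in WT-veh (lowest, median and highest), 80.0, 113 and 197 in WT-PMX, 146, 178 and 226 in Arc-veh, and 126, 177 and 234 in Arc-PMX, with overlap of the groups. It rose by 0.57 on the log2 scale in Arc-veh (SE 0.19, adjusted p = 0.0387, edgeR). Grik2 had means of 616 ± 51 and 619 ± 79 CPM in WT-veh and WT-PMX wells, and of 713 ± 99 and 779 ± 184 CPM in Arc-veh and Arc-PMX wells, and was called only over all Arctic and WT wells (log2 fold change 0.27, SE 0.08, adjusted p = 0.015; 0.20 and adjusted p = 0.317 in Arc-veh, edgeR). Grik5 was not called (0.17 in Arc-veh, adjusted p = 0.703, edgeR), and Grik1 and Grik3 had too few counts for a test.

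Of the genes that fell, Grm3 (chr5:9485541-9725170, minus strand, mm10), the predominant metabotropic receptor of adult astrocytes, had 1611, 1791 and 2147 CPM in WT-veh, 1505, 1557 and 2310 in WT-PMX, 949, 1148 and 1351 in Arc-veh, and 1019, 1176 and 1230 in Arc-PMX. Every Arctic well lay below every WT well, and the log2 fold change in Arc-veh was -0.65 (SE 0.11, adjusted p = 5.1e-05, edgeR). The AMPA receptor subunit Gria2 had 1072, 1311 and 1475 CPM in WT-veh, 990, 1192 and 1460 in WT-PMX, 643, 915 and 1132 in Arc-veh, and 734, 841 and 1225 in Arc-PMX. Most Arctic wells lay under the WT wells, and the log2 fold change was -0.53 (SE 0.12, adjusted p = 0.00188, edgeR).

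Of the 6 NMDA receptor subunits, 4 fell in Arc-veh, Grin2c was not called and Grin2d had too few counts for a test. Grin2b had 329.3, 412 and 460 CPM in WT-veh, 340, 397 and 518 in WT-PMX, 199, 289 and 329.2 in Arc-veh, and 224, 297 and 345 in Arc-PMX, so that the highest Arc-veh well lay just under the lowest WT-veh well (log2 fold change -0.54, SE 0.13, adjusted p = 0.00325, edgeR). Grin3a went from 143, 157 and 190.0 CPM in WT-veh to 69.6, 82.2 and 190.4 in Arc-veh, where M1 alone was as high as the WT-veh wells, with 91.9, 128 and 156 in WT-PMX and 31.7, 124 and 133 in Arc-PMX (log2 fold change -0.74, SE 0.21, adjusted p = 0.0147, edgeR). Grin2a and Grin1 fell by 0.79 and 0.89 on the log2 scale (SE 0.24 and 0.30, adjusted p = 0.0244 and 0.041, edgeR). The call of Grin1 rested on few transcripts, 59 in WT-veh and 50 in Arc-veh astrocytes. The Grin2c gene, the astrocyte subunit, had means of 475 ± 102 and 464 ± 83 CPM in WT-veh and WT-PMX wells and of 391 ± 85 and 395 ± 98 CPM in Arc-veh and Arc-PMX wells, a log2 fold change of -0.29 (SE 0.15, adjusted p = 0.25), and was not called.

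The delta receptor Grid1 had 358, 431 and 529 CPM in WT-veh, 392, 462 and 520 in WT-PMX, 277, 337 and 413 in Arc-veh, and 278, 328 and 385 in Arc-PMX, a log2 fold change of -0.38 in Arc-veh (SE 0.12, adjusted p = 0.0309, edgeR). Grm7, a presynaptic metabotropic receptor, and the AMPA receptor partner Cacng8 were called lower only over all Arctic and WT wells (log2 fold change -0.59, SE 0.17, adjusted p = 0.0095, and -0.38, SE 0.12, adjusted p = 0.0194, edgeR). Grin1 was not called in that comparison (-0.52, adjusted p = 0.0731).

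Several of these calls were lost when 1 well was left out, with log2 fold changes that kept their sign. That of Grin1 in Arc-veh was lost without any 1 of 8 wells (WT-veh F1, M1, M2 or F3, or Arc-veh F1, F2, M2 or F3), with log2 fold changes of -0.93 to -0.78, and that of Grik4 without any 1 of 8 wells (WT-veh M1, F2, M2, F3 or M3, or Arc-veh F1, M1 or M3), with 0.51 to 0.58. The call of Grid1 was lost without any 1 of 6 wells (WT-veh M1, F2 or M3, or Arc-veh F1, F2 or F3; -0.37 to -0.30) and that of Grin2a without any 1 of 5 (WT-veh M1 or F2, or Arc-veh M1, F2 or F3; -0.73 to -0.69). Grin3a lost its call without WT-veh F2 or Arc-veh M2 (-0.66 to -0.61), and Cacng8 without WT-veh F2 (-0.34). With doublets kept, Shank3 (0.87, adjusted p = 0.0673, edgeR), Grik4 (0.42, 0.223), Grid1 (-0.34, 0.0841), Grin2a (-0.82, 0.0929) and Grin1 (-0.40, 0.474) were not called in Arc-veh. Over all Arctic and WT wells Grm7 (-0.35, adjusted p = 0.243, edgeR), Grik2 (0.19, 0.144), Grik4 (0.28, 0.191) and Grin3a (-0.41, 0.0563) were not called with doublets kept, and Cacng8 was not called without the filter on low counts (-0.37, adjusted p = 0.0821). Grin1, Grid1 and Grin2a also lost their calls under 5, 4 and 2 other alternatives, and Grik4 without WT-veh F3 and M3 together (0.53, adjusted p = 0.107, edgeR).

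**Figure D3:**
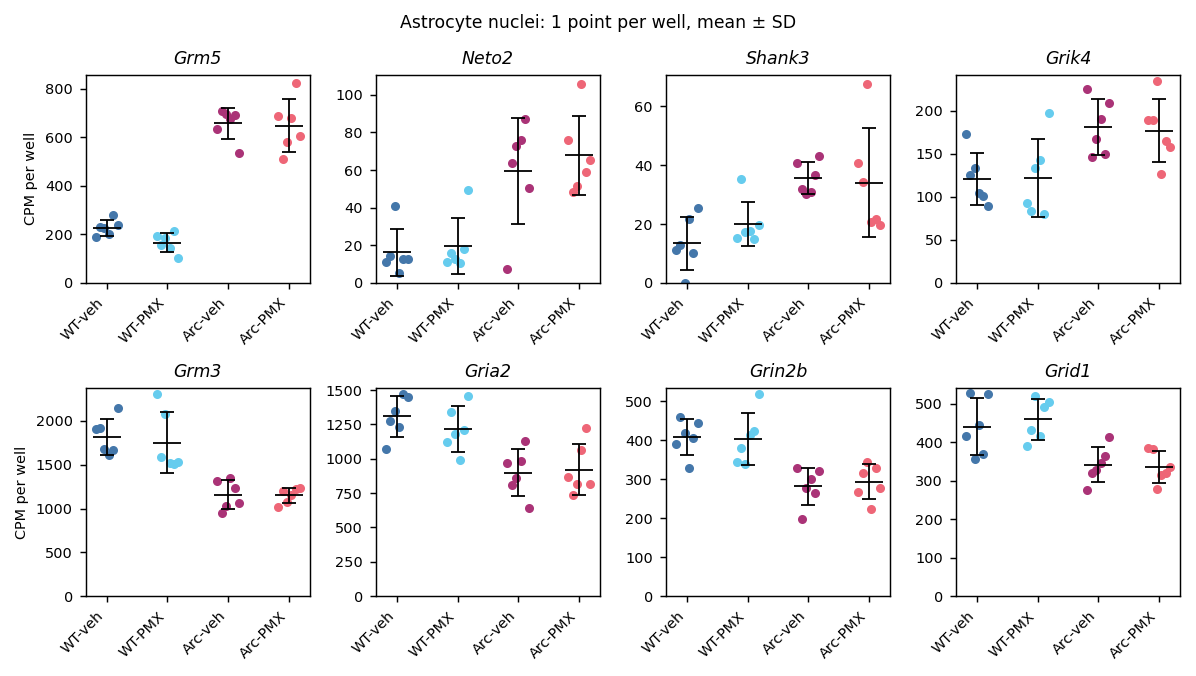
CPM in astrocyte nuclei of 8 called genes (vertical axes), a point per well in the 4 groups (horizontal axes), with mean and SD. Grm5 lies at 509 to 823 CPM in the Arctic wells and at 102 to 279 CPM in the WT wells, and Grm3 shows the opposite order with 949 to 1351 against 1505 to 2310 CPM.

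The level of the 6 neuronal genes in astrocytes moved with genotype as well. They summed to 233 to 356 CPM per well in WT-veh, 135 to 346 in WT-PMX, 110 to 181 in Arc-veh and 114 to 265 in Arc-PMX. Of the 4 with enough counts for a test, Syt1 and Rbfox3 were called lower in Arc-veh (log2 fold change -0.89 and -0.97, adjusted p = 0.00522 and 0.0459, edgeR), while Camk2a (-0.64) and Snap25 (-0.61) were not, and all 4 were called lower over all Arctic and WT wells. The genes that fell differ in how far they stand above that level. The ratio to neurons of Grin1 (0.068 in WT-veh and 0.0382 in Arc-veh), Grin2a (0.0353 and 0.0236) and Grm7 (0.0457 and 0.0279) was within the range of the 6 genes in both groups (0.0335 to 0.106 in WT-veh and 0.0159 to 0.0401 in Arc-veh). Grin2b (0.178 and 0.12) and Gria2 (0.764 and 0.585) stood above it. The part of free RNA in the falls was not tested.

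The make-up of the astrocyte nuclei also differed between genotypes. A cluster led by Gfap and Osmr, with C4b among its leading genes, held 0.811% and 1.36% of WT-veh and WT-PMX astrocyte nuclei and 48.9% and 43.5% of Arc-veh and Arc-PMX nuclei. A cluster with Rorb and Gpc5 among its leading genes, called the Rorb cluster here, held 84% and 82.7% in WT and 32% and 34.4% in Arctic wells, and a cluster led by Aqp4 and Rfx4 held 15.1% to 22.1%. Gfap was also among the leading genes of this Aqp4 cluster, and Aqp4 among those of the Gfap cluster, so the names are labels only. The mean CPM of Grm5 in Arc-veh was 899 ± 82 in the Gfap cluster, 283 ± 106 in the Rorb cluster and 362 ± 150 in the Aqp4 cluster (SD, n = 6 wells). WT-veh had 222 ± 42 in the Rorb and 229 ± 65 in the Aqp4 cluster. For Neto2 the Arc-veh means were 83.2 ± 45.6 in the Gfap cluster and 13.2 ± 10.3 in the Rorb cluster (9.0 ± 7.1 in WT-veh). Shank3, like Neto2, was highest in the Gfap cluster, with 44.2 ± 4.5 CPM against 13.5 ± 15.3 in the Rorb cluster (13.1 ± 8.9 in WT-veh). Grm3 had 988 ± 109 CPM in the Gfap cluster, and 1950 CPM in the Rorb cluster of both groups (SD 125 in WT-veh and 289 in Arc-veh). Gria2 had 912 ± 185 CPM in the Gfap cluster against 1220 ± 165 in the Rorb cluster of Arc-veh and 1446 ± 179 in that of WT-veh. Grin3a was low in the Gfap cluster, with 49.6 ± 18.4 CPM against 151 ± 94 and 137 ± 29, and higher in the Aqp4 cluster, with 261 ± 153 in Arc-veh and 321 ± 129 in WT-veh.

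Fitted within single clusters, an alternative chosen after the data had been seen, the rise of Grm5 persisted at a smaller size. Over all Arctic and WT wells its log2 fold change was 0.59 in the Rorb cluster (SE 0.15, adjusted p = 0.0256) and 0.83 in the Aqp4 cluster (SE 0.20, adjusted p = 0.0278, edgeR), and in Arc-veh minus WT-veh it was 0.34 and 0.84 without a call (adjusted p = 0.682 and 0.402). For Grm3 the Rorb cluster gave -0.01 and the Aqp4 cluster -0.24 (adjusted p = 0.644) over all Arctic and WT wells, neither called. No other gene kept its call within an astrocyte cluster, and Grin3a, Grid1, Gria2 and Grin2b had the opposite sign in 1 cluster or more. These clusters hold fewer nuclei than the whole, so a lost call does not show that levels within them were equal. The Gfap cluster had too few WT nuclei for a fit. With doublets kept, the log2 fold change of Grm5 in all astrocyte nuclei was 0.75 in Arc-veh and 0.78 over all wells, and Grm5 was still called.

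**Figure D4:**
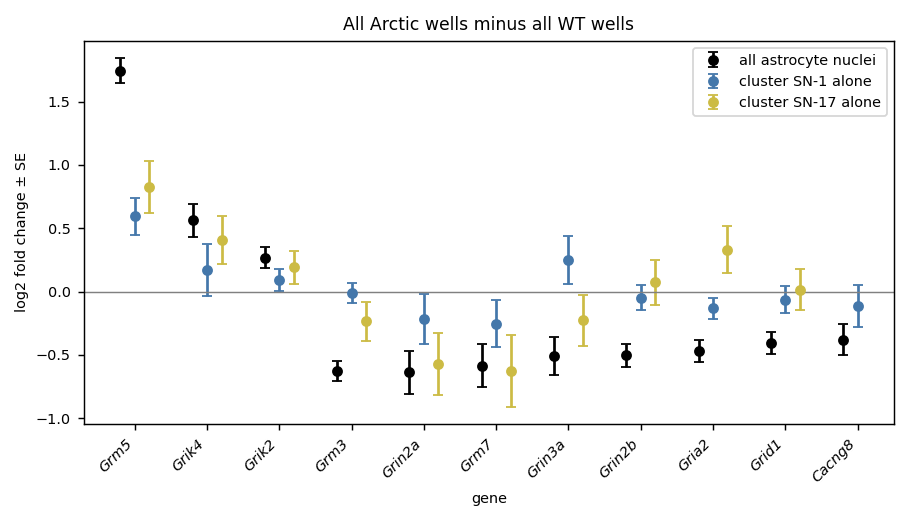
Log2 fold change with SE, all Arctic minus all WT wells, of 11 called genes (vertical axis) in all astrocyte nuclei, in the Rorb cluster alone (SN-1) and in the Aqp4 cluster alone (SN-17). Grm5 stays above 0 in all 3 fits (1.74, 0.59 and 0.83), while Grm3 goes from -0.63 in all nuclei to -0.01 in the Rorb cluster.

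In oligodendrocytes Grik2 was higher in Arctic mice of either treatment, at nearly 2 times its WT level, Grm5 fell from a low level, and over all Arctic and WT wells Grik3 was called higher and Grm8 lower. In Arc-veh minus WT-veh 1 gene rose and 1 fell of 19 tested, where 2.77% of all genes were called (median log2 fold change -0.33, against 0.02 for all genes), and over all wells 2 rose and 2 fell, where 5.45% were called (median -0.33). Over all wells 15 of the 19 had an unadjusted p under 0.05, beside 16% of all genes, and 4 lay above 0. The tested neuronal genes also had log2 fold changes below 0 in oligodendrocytes over all wells. Syt1 (-0.55, adjusted p = 0.049, edgeR) was called lower, and Snap25 (-0.87, adjusted p = 0.051), Camk2a (-0.28) and Rbfox3 (-0.15) were not. The part of free RNA in the oligodendrocyte falls was not tested.

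Grik2 (chr10:49094833-49788766, minus strand, mm10) encodes the kainate receptor subunit GluK2. It had 590, 1092 and 1185 CPM in WT-veh, 954, 1086 and 1331 in WT-PMX, 1668, 1917 and 2281 in Arc-veh, and 1544, 1980 and 2694 in Arc-PMX. Every Arctic well lay above every WT well. It rose by 0.85 on the log2 scale in Arc-veh (SE 0.13, adjusted p = 2.24e-05, edgeR) and 0.86 over all Arctic and WT wells (SE 0.09, adjusted p = 1.86e-09). A transcript was seen in 60.7% and 64.2% of WT-veh and WT-PMX nuclei and in 76.9% and 77.9% of Arc-veh and Arc-PMX nuclei, with median depths of 908, 1118, 1255 and 1266 transcripts. Grik2 stood far above free RNA in each group, with a ratio to neurons of 0.726, 0.753, 1.37 and 1.38.

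The rise of Grik2 was also found inside an oligodendrocyte cluster. A small cluster led by Gm10863 and Piezo2, with Il33 among its leading genes, held 0.675% and 0.893% of WT-veh and WT-PMX oligodendrocyte nuclei and 14.5% and 13.9% of Arc-veh and Arc-PMX nuclei, and its Grik2 mean was 3112 ± 385 CPM in Arc-veh and 3811 ± 707 in Arc-PMX (n = 5 wells each). In the cluster with Prr5l and Aspa among its leading genes alone, Grik2 went from 1219 ± 153 CPM in WT-veh (n = 5) to 1896 ± 241 CPM in Arc-veh (n = 6) (log2 fold change 0.73, SE 0.13, adjusted p = 0.00101, edgeR). In the cluster led by Prr5l and Mobp the log2 fold change was 0.43 (adjusted p = 0.341, edgeR), and 0.40 over all Arctic and WT wells (adjusted p = 0.059). If cell types were given nucleus by nucleus from the highest marker score, which adds nuclei of clusters left unnamed, the Arc-veh value was 0.42 (adjusted p = 0.0609, edgeR) and that over all wells 0.51, still called.

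The 3 other oligodendrocyte calls were lost under several alternatives. Those of Grik3 and Grm8 also rested on few transcripts (22 and 55 in WT-veh in all, against 260 of Grm5). Grm5 had 148.1, 197 and 377 CPM in WT-veh, 72.5, 160 and 277 in WT-PMX, 74.7, 117 and 148.4 in Arc-veh, and 44.6, 99.3 and 335 in Arc-PMX, with groups that overlapped (log2 fold change -1.02, SE 0.29, adjusted p = 0.0444, edgeR). This call was lost without any 1 of 14 wells, namely WT-veh F1, M1, F2, F3 or M3, any Arc-veh well, Arc-PMX F1 or F2, or WT-PMX F3, and without WT-veh F2 the log2 fold change was -0.61. With nuclei named one by one it was -1.62 and still called (adjusted p = 0.0134, edgeR), and it was lost with doublets kept (-1.52, adjusted p = 0.0922), with DESeq2 (-0.99, 0.133), without sex as covariate (adjusted p = 0.0532), with more than 500 transcripts and genes per nucleus (-1.05, 0.0909) and without WT-veh F3 and M3 (-1.04, 0.0685). The call over all Arctic and WT wells (-0.73, SE 0.20, adjusted p = 0.023, edgeR) was lost without WT-PMX F1, WT-veh F2 or WT-PMX M2 (-0.69 to -0.52) and with DESeq2 (-0.68, adjusted p = 0.0871). Its ratio to neurons was 0.0744 in WT-veh and 0.0439 in Arc-veh, where the 6 neuronal genes reached 0.055 and 0.0961, so that in Arc-veh it was within the range of free RNA. Grik3 had medians of 1.93 and 18.8 CPM in WT-veh and WT-PMX wells and of 32.8 and 55.5 CPM in Arc-veh and Arc-PMX wells (log2 fold change over all wells 1.25, SE 0.34, adjusted p = 0.0184, edgeR; 0.07 and not called with nuclei named one by one). The call was lost without WT-PMX F1 (1.08) or Arc-veh F3 (1.08). Grm8, a presynaptic metabotropic receptor, had means of 49.6 ± 30.1 and 62.4 ± 38.0 CPM in WT-veh and WT-PMX wells and of 33.1 ± 12.5 and 27.6 ± 17.4 CPM in Arc-veh and Arc-PMX wells (log2 fold change over all wells -0.87, SE 0.25, adjusted p = 0.0272, edgeR), and its call was lost without any 1 of 6 wells (WT-veh F2 or M2, WT-PMX M2 or F3, or Arc-PMX F1 or M3; -0.84 to -0.78). With doublets kept, neither Grm8 (-0.66, adjusted p = 0.187, edgeR) nor Grik3 (0.97, adjusted p = 0.0887) was called over all wells, nor was the lower level of Grm5 (-0.86, adjusted p = 0.135).

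In OPCs, none of 20 tested genes was called in Arc-veh minus WT-veh, where 1.07% of all genes were (5 had an unadjusted p under 0.05, beside 9.15% of all genes, median log2 fold change -0.06 against -0.00 for all genes). Grik3 had the smallest unadjusted p (0.00227, adjusted p = 0.13, edgeR). Grin2a had the lowest log2 fold change at -0.87 (adjusted p = 0.145, edgeR). Relative to neurons, Grin2a stood at 0.0394 in WT-veh and 0.0218 in Arc-veh OPCs, under Syt1 at 0.0515 and 0.0344. Syt1 had a log2 fold change of -0.49 (adjusted p = 0.567, edgeR), and the part of free RNA was not tested. Over all Arctic and WT wells Grm5 and Grik3 were called higher, where 2.42% of all genes were called. Grm5 had 1070, 1440 and 1508 CPM in WT-veh, 1008, 1262 and 1641 in WT-PMX, 1283, 1561 and 2097 in Arc-veh, and 1369, 1835 and 2394 in Arc-PMX, with overlapping groups and a log2 fold change of 0.41 (SE 0.09, adjusted p = 0.00385, edgeR). Grik3 had 232, 251 and 313 CPM in WT-veh, 163, 262 and 392 in WT-PMX, 257, 397 and 544 in Arc-veh, and 267, 336 and 469 in Arc-PMX (log2 fold change 0.53, SE 0.13, adjusted p = 0.00952, edgeR). The Arctic medians of Grik3 were higher than both WT medians, and the wells overlapped. Neither was called when nuclei were named one by one (Grm5 0.0083, adjusted p = 0.998, and Grik3 0.38, adjusted p = 0.48, edgeR).

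**Figure D5:**
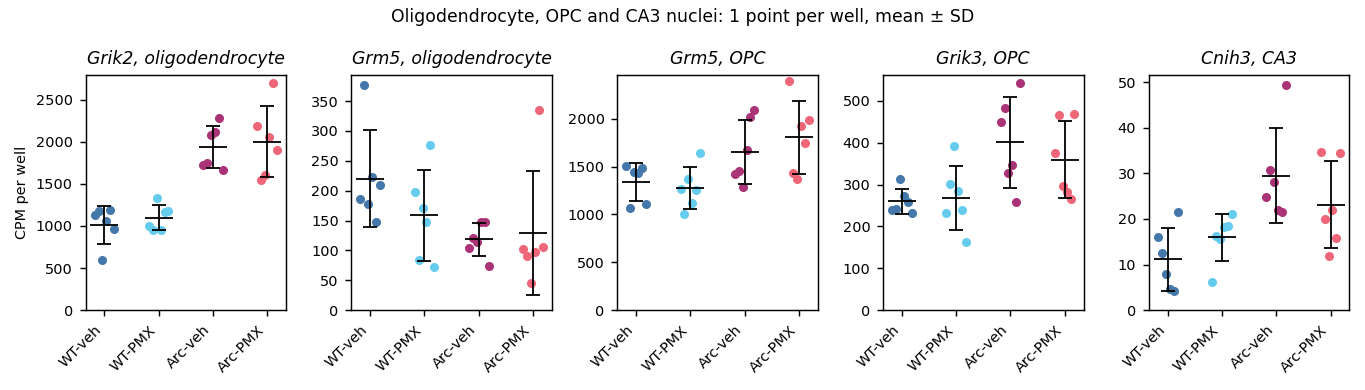
CPM of Grik2 and Grm5 in oligodendrocytes, Grm5 and Grik3 in OPCs and Cnih3 in CA3 (vertical axes), a point per well in the 4 groups (horizontal axes), with mean and SD. Oligodendrocyte Grik2 lies at 1544 to 2694 CPM in the Arctic wells, above all WT wells at 590 to 1331 CPM.

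In microglia 8 genes had enough counts, and none was called in Arc-veh minus WT-veh, where 11.2% of all genes were, or over all Arctic and WT wells, where 19% were. The median log2 fold changes were -0.47 and -0.76, with 0 and 3 genes at an unadjusted p under 0.05, beside 22.4% and 29.1% of all genes. The lowest p values over all wells were those of Grm5 (-0.76, adjusted p = 0.089, edgeR) and Grin2b (-0.94, adjusted p = 0.119), and WT-veh microglia held only 26 and 24 transcripts of them in all. Neither gene had reached 3 times the limit of the neuronal genes in microglia, and Grm5 had 241 CPM in WT-veh microglia beside 2957 in neuron-like nuclei. The 8 genes moved together, with 0 above 0 over all Arctic and WT wells and 8 above 0 in both Arc-PMX minus Arc-veh and WT-PMX minus WT-veh. The part of free RNA in these values was not tested.

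In neurons Cnih3 was the only called gene, in CA3 in Arc-veh minus WT-veh and in CA3 and dentate granule nuclei over all Arctic and WT wells, each time higher. In Arc-veh minus WT-veh the background was 0.28% of all genes in dentate granule, 0.0387% in CA1, 0.175% in CA3 and 0% in interneuron nuclei, and over all wells 1.6%, 0.0871%, 0.423% and 0.0113%. The median log2 fold changes of the tested genes in Arc-veh were -0.01, 0.04, -0.04 and -0.02, against 0.01, 0.01, 0.00 and -0.00 for all genes. Without adjustment 7 of 32, 1 of 31, 4 of 30 and 4 of 32 genes had a p under 0.05 in dentate granule, CA1, CA3 and interneuron nuclei, beside 9.38%, 6.67%, 6.67% and 5.12% of all genes.

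Cnih3 (chr1:181352628-181460641, plus strand, mm10) encodes the cornichon that slows AMPA receptor closing. In CA3 it had 4.22, 10.2 and 21.5 CPM in WT-veh, 6.10, 17.2 and 21.1 in WT-PMX, 21.6, 26.5 and 49.4 in Arc-veh, and 11.8, 21.0 and 34.7 in Arc-PMX. Every Arc-veh well was above every WT-veh well, by a narrow margin, while Arc-PMX overlapped WT-PMX. It rose by 1.48 on the log2 scale in Arc-veh (SE 0.32, adjusted p = 0.0371, edgeR) and 1.04 over all wells (SE 0.22, adjusted p = 0.0224). The Arc-veh call was lost without any 1 of 7 wells (WT-veh M1, F2, M2 or F3, or Arc-veh F2, F3 or M3), with log2 fold changes of 1.28 to 1.60, and that over all wells without Arc-PMX M3 (0.96) or with doublets kept (0.91, adjusted p = 0.0501, edgeR). Without WT-veh F3 and M3 together the Arc-veh value was 1.65 (adjusted p = 0.0545, edgeR). In the CA3 cluster led by Nectin3 and Ccbe1 alone it was 1.91 (SE 0.32, adjusted p = 0.00158, edgeR), and in the other CA3 cluster, led by Gm32647 and Col6a1, 0.999 (adjusted p = 0.775). The dentate granule markers, a type in which Cnih3 is about 10 times as high, summed to 67.1 to 113 CPM in WT-veh CA3 wells and to 39.2 to 69.3 in Arc-veh. Markers of CA1, where Cnih3 had 141 CPM, are not given here. The part of RNA or nuclei of other types in the CA3 values was not tested.

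In dentate granule nuclei Cnih3 had 171, 184 and 204 CPM in WT-veh, 146, 175 and 231 in WT-PMX, 151, 252 and 274 in Arc-veh, and 185, 224 and 279 in Arc-PMX. Arc-veh M2 was the lowest Arctic well and the groups overlapped. The log2 fold change was 0.37 in Arc-veh (adjusted p = 0.267, edgeR) and 0.36 over all Arctic and WT wells (SE 0.09, adjusted p = 0.0232). The latter call was lost without Arc-PMX F1, WT-PMX F2, Arc-veh F3 or Arc-PMX M3 (0.32 to 0.34), and no dentate cluster alone had a call (0.30, 0.40 and 0.16 in the clusters led by Stra6, Fam163b and Trpc6, of which the Fam163b cluster held 48% of WT-veh and 16.2% of Arc-veh nuclei).

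Neurons had no other call, and the following are values only, the smallest unadjusted p of each type. In Arc-veh minus WT-veh, dentate Grm8 had a log2 fold change of 0.36 (adjusted p = 0.327, edgeR), CA1 Cnih3 0.27 (0.737) and interneuron Dlg4 -0.30 (0.938). Over all wells CA1 Grin3a had 0.31 (adjusted p = 0.624, edgeR), interneuron Dlgap1 -0.17 (0.807) and interneuron Grin2a -0.19 (0.914). The SE of the log2 fold change in Arc-veh minus WT-veh had a median of 0.12 over the tested genes of dentate granule nuclei.

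Subunit ratios, which library scaling does not affect, were compared as well. Of 24 differences (2 ratios, 4 neuronal types and 3 comparisons), none passed adjustment over the 24 by a two-sided exact permutation test. The lowest p was for Grin2a to Grin2b in CA3, with a log2 ratio of 0.83 ± 0.05 in WT-veh and 0.69 ± 0.11 in Arc-veh (n = 6 each), a difference of -0.14 (exact p = 0.00216, the smallest that 924 splits allow, adjusted p = 0.0519). A single difference among the 24 could therefore not pass in this design.

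The next question was whether PMX205 changed these genes. It did not give a call for any of the 34 genes in any type: 0 in Arc-PMX minus Arc-veh, 0 in WT-PMX minus WT-veh, and 0 for the difference between the 2 effects by edgeR's quasi-likelihood test. The background was as low, with 0.00531% of all genes over the 8 types called in Arc-PMX minus Arc-veh, 0% in WT-PMX minus WT-veh and 0% for the difference. At an unadjusted p under 0.05 there were 1 gene each in CA3 and microglia in Arc-PMX minus Arc-veh. In WT-PMX minus WT-veh these were 2 in CA3, 2 in OPCs and 1 each in interneurons, astrocytes and microglia, and for the difference 2 in CA3 and 1 each in CA1, interneurons and astrocytes. Of all genes, 1.89% to 4.1% had such a p in a type in Arc-PMX minus Arc-veh, 2.97% to 5.71% in WT-PMX minus WT-veh and 2.66% to 4.63% for the difference. DESeq2 in place of edgeR gave no call either. Without the filter on low counts there was 1 call in each of the 3 contrasts, among them CA3 Grin3a in Arc-PMX minus Arc-veh (-1.13, adjusted p = 0.00723, edgeR) and for the difference (-1.81, adjusted p = 0.00267).

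None of the genes called between genotypes in glia was called between Arc-veh and Arc-PMX. The log2 fold change of Arc-PMX minus Arc-veh was -0.02 for astrocyte Grm5 (SE 0.12), -0.01 for astrocyte Grm3 (SE 0.11), 0.11 for astrocyte Neto2 (SE 0.25) and 0.12 for astrocyte Grin3a (SE 0.21). It was 0.47 for oligodendrocyte Grik3 (SE 0.38). Astrocyte Grm5 in WT-PMX minus WT-veh was -0.43 (SE 0.15, unadjusted p = 0.00724, adjusted p = 1 by edgeR), and the difference of the effects was 0.40 (unadjusted p = 0.0453, edgeR). CA3 Cnih3 was -0.30 in Arc-PMX minus Arc-veh (SE 0.29). Effects within these errors were not detectable at this depth, and larger ones could also go uncalled, as for astrocyte Grm5 in WT-PMX. A missing call therefore does not show that a level was unchanged.

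The other smallest p values are given as values only. In Arc-PMX minus Arc-veh, CA3 Grin3a had a log2 fold change of -1.12 (SE 0.46, unadjusted p = 0.0209 by edgeR), with 2.31 to 39.3 CPM in Arc-veh, where M2 was the highest, and 3.54 to 15.5 in Arc-PMX. Microglial Grm5 had 0.70 (unadjusted p = 0.0298, edgeR). In WT-PMX minus WT-veh, CA3 Cnih2 had 0.65 and CA3 Neto2 -0.33, interneuron Dlg4 -0.27, OPC Gria1 -0.48, OPC Grik1 -0.35 and microglial Dlgap1 1.40. For the difference of the effects, CA3 Grin3a had -1.81, CA3 Cacng2 0.43, CA1 Cnih3 -0.37 and interneuron Dlg4 0.37. None of these passed adjustment with the filter on low counts.

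For context, 46 other genes of the glutamate synapse (transporters, glutamine synthetase, further auxiliary subunits and scaffolds) were counted in the same fits. In Arc-veh minus WT-veh none of the 38 to 41 tested in each neuronal type was called, where 0% to 0.28% of all genes were. In astrocytes 3 of 27 rose and 6 fell, where 7.6% of all genes were called higher and 4.9% lower. The AMPA receptor auxiliary subunit Shisa6 rose by 1.47 on the log2 scale (adjusted p = 1.59e-06, edgeR), the AMPA receptor binding scaffold Grip1 by 0.90 (0.000824) and the scaffold Dlgap4 by 0.62 (0.0051). Glul, which encodes glutamine synthetase, fell by 0.87 on the log2 scale (adjusted p = 6.24e-06, edgeR), from 644 to 353 CPM, and Slc1a2, the main glutamate transporter of astrocytes, by 0.37 (0.00273), from 11025 to 8535 CPM. Kalrn, Dlgap2 and Lrrtm4 also fell. Cacng4 fell in OPCs (log2 fold change -0.55, adjusted p = 0.0188, edgeR), the 1 call of 26 tested there, where 1.07% of all genes were called. None of 11 was called in microglia, where 11.2% of all genes were. PMX205 gave no call in this list.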

How the data were processed

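Nuclei of 24 mice were profiled by split-pool barcoding (Parse Biosciences). The authors demultiplexed with bcl2fastq and deposited raw counts of transcripts (mm10), unnormalized, in 7 sublibraries that each mix all wells. The aligner's version is not given in the sources used here. Groups and sexes of wells came from the deposited sample sheet. Only single-nucleus wells were used, and CD11b-selected cells were not used here. No column of ratios or p-values was used.

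Nuclei needed more than 300 and fewer than 50000 transcripts, more than 400 genes and under 1% mitochondrial transcripts. Doublets were scored per sublibrary by Scrublet (scanpy 1.11.5, expected rate 0.06) and removed above 0.25. Of 39796 combinations of well and barcode, 3836 occurred in more than 1 sublibrary (7925 nuclei), and these nuclei were kept apart. Nuclei were clustered without the 34 genes (2000 variable genes, 30 principal components, 15 neighbours, leidenalg 0.10.2 at resolution 1.5). Clusters were named from marker lists, with thresholds set after the clusters had been seen. A name needed a score of at least 1.75, 3 markers each in 10% of nuclei, a second type under 0.75 of the best and at most 20% doublets.

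Counts were summed per well and type (at least 10 nuclei) and fitted with edgeR 4.0.16 (R 4.3.3: TMM, filterByExpr by group, glmQLFit and glmQLFTest), with 4 groups in 1 fit, sex as covariate and Benjamini-Hochberg adjustment over the tested genes of a type and contrast. CPM used library totals times TMM factors, and unscaled totals within clusters and for all neuron-like nuclei. Astrocyte wells held 101020 to 1145684 transcripts, and microglial wells as few as 8008. Gene positions are those of GENCODE vM21 on GRCm38, which is mm10. Scripts were tested on simulated data. Wells of 1 group differed by more than sampling noise.

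The genes, lists and tests were chosen with earlier results of these data known. Named with values were each gene called in any type and contrast and, where none was called, at most the 2 of lowest unadjusted p. For levels, each gene at least 4 times its median over types and the gene of each class with the smallest ratio of highest type to median were named, and in glia each gene at least 3 times the highest neuronal gene. Replicate numbers (F1 to M3) restart in each group. Over 36 same-numbered pairs of wells per type (28 in microglia), the median correlation of deviations was -0.00 to 0.05 and not all exceeded 0.1, so the numbers were not taken as pairs. Alternatives were RLE scaling, DESeq2 1.42.0, no filter, no covariate, 2-group fits, each well left out, WT-veh F3 and M3 left out, doublets kept, more than 500 transcripts and genes, nuclei named one by one, and a replicate block. After the data had been seen, fits of single clusters, CA3 without 1 cluster and interneurons with an unnamed Gad1/Gad2 cluster were added.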

Additional observations from a re-analysis of the deposited data

Results flagged for a closer look

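Among 88 groups of 6 wells of the named genes in the cell types where they were called, 10 had a single well far from the others, judged by the gap to the nearest well relative to the range of the group. Chance gives about 1 in 20 groups. In CA3, Cnih3 was high in Arc-veh M3 (49.4 CPM) and low in WT-PMX F1 (6.10 CPM). In dentate granule nuclei Cnih3 was low in Arc-veh M2 (151 CPM). Astrocyte Grin3a was high in Arc-veh M1 (190.4 CPM), Neto2 in WT-PMX M3 (49.2 CPM) and WT-veh F3 (40.9 CPM), and Shank3 in WT-PMX F2 (35.2 CPM). Oligodendrocyte Grm5 was high in Arc-PMX M2 (335 CPM) and WT-veh F2 (377 CPM), and Grm8 in WT-PMX F3 (134 CPM).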

How the results depend on the processing

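In Arc-veh minus WT-veh 14 calls were made over the 8 types. There were 9 with doublets kept, 23 with nuclei named one by one, and 9 without WT-veh F3 and M3. Leaving out 1 well gave 8 to 16, the lowest without WT-veh M1 or F2 (8 each) and Arc-veh F2 (9). Over all Arctic and WT wells there were 21 calls (18 to 28 with 1 well left out). A replicate block gave 14 and 28 calls, against 14 and 21 without it, and under the block astrocyte Grin1 (-0.92, adjusted p = 0.053) and oligodendrocyte Grm5 (-0.91, adjusted p = 0.0565) were not called in Arc-veh. PMX205 gave 0 calls, and 0 to 0 with 1 well left out, but 1 call in each of its 3 contrasts without a filter on low counts. These were CA3 Grin3a (-1.13 in Arctic mice and -1.81 for the difference of the effects) and, in WT mice, CA3 Grik1, which was not tested otherwise. Subunit ratios gave 0 calls in each setting, where a single difference could not be called.

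Signs reversed only in single clusters, which hold fewer nuclei. In Arc-veh minus WT-veh these were astrocyte Grm3 (0.0169), Grin3a (0.17) and Grid1 (0.0207) in the Rorb cluster, Grin2b (0.28) and Gria2 (0.12) in the Aqp4 cluster, and dentate Grm8 (-0.00228) in the Trpc6 cluster. Over all wells they were Grin3a (0.25) in the Rorb cluster, Grin2b (0.0732), Gria2 (0.33) and Grid1 (0.0163) in the Aqp4 cluster, and interneuron Grin2a (0.0803) in the Fgf13 cluster. For the called fold changes, 773 of 840 values with 1 well left out and 312 of 350 under other alternatives kept their call and direction. The rest kept the direction but lost the call, some with far smaller values, such as OPC Grm5 (0.0083) and oligodendrocyte Grik3 (0.0731) over all wells with nuclei named one by one and astrocyte Grin1 (-0.40) in Arc-veh with doublets kept. The cause was not tested. No value was had for CA3 Grin3a without 1 cluster, nor for oligodendrocyte Grik3 and Grm8 and microglial Dlgap1 in 2-group fits. Depth limits microglia, where 8 of the 34 genes could be tested.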

Other observations

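Among the 46 other glutamate synapse genes, the dentate granule nuclei held 3 calls over all Arctic and WT wells by edgeR's quasi-likelihood test. There 40 of the 46 were tested, and 1.6% of all genes were called. Homer2, a scaffold that links group I metabotropic receptors to calcium stores, had 21.4, 28.3 and 35.2 CPM in WT-veh (lowest, median and highest well), 21.6, 25.1 and 29.8 in WT-PMX, 28.5, 41.7 and 51.8 in Arc-veh, and 37.4, 44.2 and 56.8 in Arc-PMX. Every Arc-PMX well lay above every WT well, and the log2 fold change was 0.72 (SE 0.10, adjusted p = 5.85e-05). Grip1, which binds AMPA receptors, rose by 0.28 on the log2 scale (SE 0.06, adjusted p = 0.00951, edgeR), and the postsynaptic density gene Anks1b fell by 0.21 (SE 0.05, adjusted p = 0.0117).

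In astrocytes Shisa6, an auxiliary subunit of AMPA receptors, had 50.7, 92.8 and 123 CPM in WT-veh, 38.4, 79.9 and 103 in WT-PMX, 213, 235 and 263 in Arc-veh, and 114, 232 and 333 in Arc-PMX. All Arc-veh wells were above all WT wells, as for Grm5. The log2 fold change over all Arctic and WT wells was 1.52 (SE 0.14, adjusted p = 5.83e-11, edgeR). The astrocyte marker Gfap, which leads the cluster in which the Arc-veh means of Grm5, Neto2 and Shank3 were highest among the Gfap, Rorb and Aqp4 clusters, had means of 147 ± 30 and 234 ± 68 CPM in WT-veh and WT-PMX wells and of 1326 ± 366 and 1230 ± 399 CPM in Arc-veh and Arc-PMX wells (n = 6 each).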
